A study of Mus musculus with 30 samples.

Results

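The genes described here are 10 enzymes that make or remove reactive oxygen species (ROS): the oxidant-producing NADPH oxidase Nox4, the superoxide dismutases Sod1, Sod2 and Sod3, catalase (Cat), the glutathione peroxidases Gpx3 and Gpx4, the peroxiredoxin Prdx3, the thioredoxin reductase Txnrd1 and haem oxygenase 1 (Hmox1). They were taken by name from the 41128 genes of the count tables for mouse aorta and kidney, and all 10 passed the low-count filter in both tissues, among 14796 genes tested in aorta and 15034 in kidney. Male mice with loxP-flanked Egfr and a tamoxifen-inducible Cre under the smooth muscle myosin heavy chain promoter (KO) were set beside wild type mice that carried the Cre without loxP sites (WT). The strain background was given as C57Bl6J, and the Cre parents were C57BL/6N. All animals, WT included, received tamoxifen at 1 mg per day for 5 days, and 7 days later, at 6 weeks of age, began 18 weeks of a high-fat diet (HFD) or stayed on a standard fat diet (SFD). The aorta groups held 3 WT-SFD, 4 WT-HFD, 3 KO-SFD and 4 KO-HFD mice, and each kidney group held 4 mice, so that 14 aortae and 16 kidneys were measured. By their numbers in the labels 3 of the 27 mice gave both an aorta and a kidney. The question put to these genes was whether their mRNA differed between the diets, between the genotypes, or in its response to diet between the genotypes.

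Superoxide is made by NADPH oxidases and by leakage from mitochondrial respiration, and superoxide dismutases turn it into hydrogen peroxide, which catalase, glutathione peroxidases and peroxiredoxins then reduce to water. SOD1 works mainly in the cytosol, SOD2 in the mitochondrial matrix and SOD3 outside the cell, where it is known as a major isoform of the vessel wall. NOX4 releases mainly hydrogen peroxide and is expressed in vascular smooth muscle and in kidney tubules, and the kidney is known as the main source of plasma GPX3.

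Levels are given as FPM, the CPM scale (each count over its library's TMM-scaled total). Total counts ran from 6403699 to 13052870 in aorta and from 16354880 to 28331314 in kidney, and the lowest count of any of the 10 genes in any library was 26, for Hmox1 in aorta. Both tables held no count for any gene on chromosomes 9, X, Y and MT, nor for any of the 526 genes of chromosome 8 beyond position 97565603 (GRCm38), so 17 of the related genes listed for comparison, among them Gpx1, Cyba, Cybb, Nqo1 and Keap1, could not be analysed here. Hmox1, the only one of the 10 on chromosome 8, begins at position 75093621, within the stretch that held counts. The labels were checked on Egfr. In aorta it was 39.5 to 65.1 FPM in the 7 WT mice and 26.8 to 40.6 FPM in the 7 KO mice. Each KO mouse was below every WT mouse on the same diet, as was so for 4.37% of genes on SFD and 2.03% on HFD. The log2 fold change averaged over diets was -0.67 (SE 0.109, edgeR adjusted p = 0.0132). Within a single diet Egfr did not pass (edgeR adjusted p = 0.531 on SFD and 0.130 on HFD). In whole kidney, where smooth muscle is a small part of the tissue, the same contrast was -0.002 (adjusted p = 0.998 by edgeR). Smooth muscle markers summed to between 10732 and 19236 FPM per aorta, with Acta2 the most abundant, while Tagln and Cnn1 held no count in either tissue. Proximal tubule markers summed to between 13012 and 22600 FPM per kidney, with Slc34a1 the most abundant.

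Antioxidant genes are known to share a promoter element, the antioxidant response element, and the promoters were read for its core TGACNNNGC on both strands. The set of RefSeq windows used here, on GRCm38.p6, covered 8 of the 10 genes (13 windows) and held none for Sod3 and Hmox1. The core stood in the windows of 2 genes, Sod1 and Txnrd1, and in 4071 of all 32851 windows (12.4%) or 3781 of 27025 genes (14%). The 250 bases upstream of the start are printed for both matches and for Nox4, the gene with the clearest diet difference in kidney, whose window held no match. Capitals mark the core, here on the antisense strand, 56 to 48 bases upstream of the Sod1 start and 92 to 84 bases upstream of this Txnrd1 start. The stretches lie at chr16:90220512-90220761 (Sod1), chr10:82858956-82859205 (Txnrd1) and chr7:87246399-87246648 (Nox4), all on the plus strand.
Sod1: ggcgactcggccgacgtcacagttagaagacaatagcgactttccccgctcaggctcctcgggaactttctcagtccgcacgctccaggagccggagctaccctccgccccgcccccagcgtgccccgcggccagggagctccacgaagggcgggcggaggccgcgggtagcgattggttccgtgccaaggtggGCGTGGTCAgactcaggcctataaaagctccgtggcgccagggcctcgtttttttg
Txnrd1: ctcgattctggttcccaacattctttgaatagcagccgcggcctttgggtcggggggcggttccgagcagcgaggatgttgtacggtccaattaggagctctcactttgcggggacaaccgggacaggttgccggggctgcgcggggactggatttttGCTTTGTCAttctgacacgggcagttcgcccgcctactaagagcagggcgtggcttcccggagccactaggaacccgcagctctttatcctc
Nox4: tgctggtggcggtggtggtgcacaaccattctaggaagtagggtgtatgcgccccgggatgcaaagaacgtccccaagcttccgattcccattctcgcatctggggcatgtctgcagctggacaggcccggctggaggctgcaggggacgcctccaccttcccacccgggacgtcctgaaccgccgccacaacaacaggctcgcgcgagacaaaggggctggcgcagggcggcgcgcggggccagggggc
A match describes letters in a window and no binding was measured.

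The 10 genes differed widely in level, and their order was not the same in aorta and kidney. Per kilobase of exon, which is the scale on which genes can be set beside each other, Sod3 was highest in aorta at 102 ± 15.2 FPM per kb (SD, n = 14), above Gpx3 at 33.0 ± 29.2, Cat at 30.1 ± 18.1, Nox4 at 28.9 ± 5.86 and Gpx4 at 23.7 ± 12.2 FPM per kb. Sod1 (11.7 FPM per kb), Prdx3 (11.5), Sod2 (7.38), Txnrd1 (3.80) and Hmox1 (2.60) followed. From Gpx3 down to Sod2 each gene differed from the next by less than the larger of their SDs, while Sod2, Txnrd1 and Hmox1 stood further apart. These means pool groups that differ. In the HFD aortae the mean of Nox4 (32.3 in WT and 29.6 FPM per kb in KO) was above Cat (20.5 and 21.4) and Gpx3 (18.0 and 16.6). In kidney Gpx3 stood far above the rest at 13235 ± 3637 FPM per kb (SD, n = 16). It held the most counts of all 15034 genes tested there and ranked 6 when length was considered. Cat (313 FPM per kb), Sod3 (170), Prdx3 (117), Sod1 (107) and Gpx4 (76.6) came next, and Sod2 (34.8), Txnrd1 (24.5), Nox4 (19.5) and Hmox1 (14.8) were lowest. Neighbours within the larger of their SDs were Prdx3 and Sod1, Txnrd1 and Nox4, and Nox4 and Hmox1. The tissues were sequenced at different places and were not tested against each other.

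**Figure D1:**
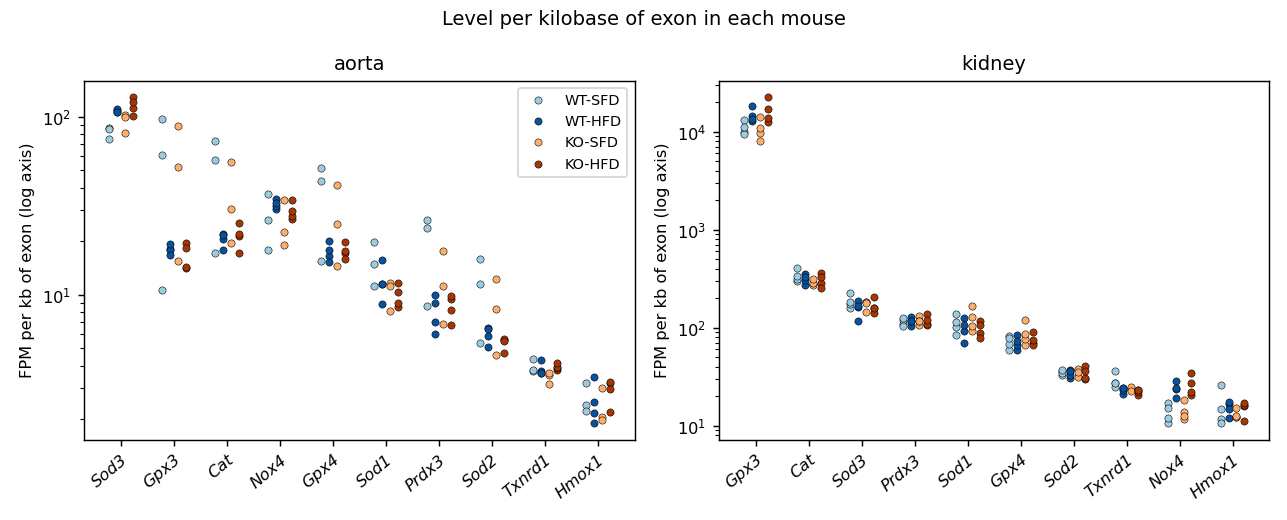
Level of each of the 10 genes in FPM per kilobase of exon (log axis) in each of 14 aortae (left) and 16 kidneys (right), with the genes ordered by their mean and points coloured by group. Gpx3 lies far above the other genes in kidney, and in aorta Gpx3, Cat, Gpx4, Prdx3 and Sod2 spread widely within the SFD groups while Sod3 and Txnrd1 stay narrow.

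In kidney, HFD went with more Nox4 mRNA in both genotypes. Nox4 was 145, 89.5, 102 and 128 FPM in the 4 WT-SFD mice and 243, 203, 205 and 162 FPM in the 4 WT-HFD mice. In KO it was 100, 117, 154 and 106 FPM on SFD and 174, 189, 289 and 230 FPM on HFD. All 8 HFD kidneys were above all 8 SFD kidneys, which was so in the same direction for 0.998% of genes tested. Averaged over genotypes Nox4 rose (log2 fold change 0.85, SE 0.132, 95% interval 0.59 to 1.10, edgeR adjusted p = 8.1e-04), and it was the 1 of the 10 genes called at an adjusted p under 0.05, where 4.62% of all genes were called. The WT and KO mice showed similar sizes. In WT the log2 fold change was 0.80 (SE 0.187, edgeR adjusted p = 0.0523, 0 of 10 genes called against 0.964% of all genes, 2 at an unadjusted p under 0.05 against 8.05%, and 1 called by DESeq2 against 1.75%). In KO it was 0.89 (SE 0.187, edgeR adjusted p = 0.0160), again the 1 gene of the 10 that passed, against 2.39% of all genes, with 2 of 10 at an unadjusted p under 0.05 against 16.1% and 2 called by DESeq2 against 4.62%. The difference of the diet effect between KO and WT was 0.08 on the log2 scale, with a 95% interval from -0.43 to 0.60 (edgeR adjusted p = 1.00). That interval rests on the normal quantile and is narrower than the F test allows. With 4 mice a group, at least a difference within it could not be told from none. KO and WT did not separate in Nox4 on SFD (0.04) or on HFD (0.12).

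The Nox4 contrast over both genotypes held when any single kidney was left out (log2 fold change 0.77 to 0.92, called in 16 of 16 fits). The value within KO was called in 11 of 16 such fits (edgeR adjusted p 0.00993 to 0.0592) and missed without KO-SFD mouse 1, 2 or 4 or KO-HFD mouse 3 or 4. The value within WT was called in 5 of 16 (edgeR adjusted p 0.0301 to 0.180), namely without WT-SFD mouse 1, WT-HFD mouse 4, KO-SFD mouse 3 or KO-HFD mouse 1 or 3. Markers of tubule segments and of other cells also differed between the diets. Of 9 proximal tubule markers, 3 rose with HFD by edgeR, namely the glucose transporter Slc5a2 (1.37), the lactate transporter Slc5a12 (0.94) and the creatine-synthesis enzyme Gatm (1.04 on the log2 scale), and the other 6 did not pass, of which DESeq2 called the water channel Aqp1 lower (-0.24, edgeR adjusted p = 0.131). The summed proximal markers were 16172, 14656, 14390 and 18204 FPM in WT-SFD, 13968, 17453, 16111 and 17218 in WT-HFD, 13012, 14977, 15046 and 14316 in KO-SFD, and 14680, 14641, 22600 and 18699 in KO-HFD. Of 5 markers of the loop of Henle and distal tubule 2 rose by edgeR, the calcium-binding Pvalb (1.23) and the salt cotransporter Slc12a3 (0.40), while Umod, the most abundant, was at -0.41 (edgeR adjusted p = 0.0808) and was called lower by DESeq2. Their sums, 7204, 6933, 7644 and 5890 FPM in WT-SFD and 6160, 5751, 7107 and 5247 in WT-HFD, overlapped in WT. In KO they were 8087, 7506, 8083 and 7602 FPM on SFD and 6302, 6430, 4292 and 5426 on HFD, without overlap. Of 5 collecting duct markers 0 were called by edgeR (4 at an unadjusted p under 0.05, as were 18.2% of all genes) and 1 was lower by DESeq2. Of 15 white and general adipocyte markers edgeR called 3 in kidney, with Lep, the leptin gene, higher (3.97) and Cfd (-3.86) and the lipase Pnpla2 (-0.42) lower, and DESeq2 called 1 higher and 3 lower. Their sums, with Gpd1 the most abundant, were 1027 to 2172 FPM on SFD and 1127 to 1753 FPM on HFD and overlapped in both genotypes. Of 8 leucocyte markers 0 were called by edgeR (2 at an unadjusted p under 0.05) and 1 was higher by DESeq2. The part of these markers in the Nox4 result was not tested. The KO-HFD kidney with 22600 FPM of proximal tubule markers also had the highest Nox4 and the highest Gpx3 of all 16. With the mean log2 level of the 9 proximal tubule markers, 3 of which themselves rose, as a covariate added after the data were seen, the Nox4 value was 0.39 (SE 0.183, edgeR adjusted p = 0.407). In such whole-tissue samples, more cells of a type and more RNA per cell cannot be told apart.

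**Figure D2:**
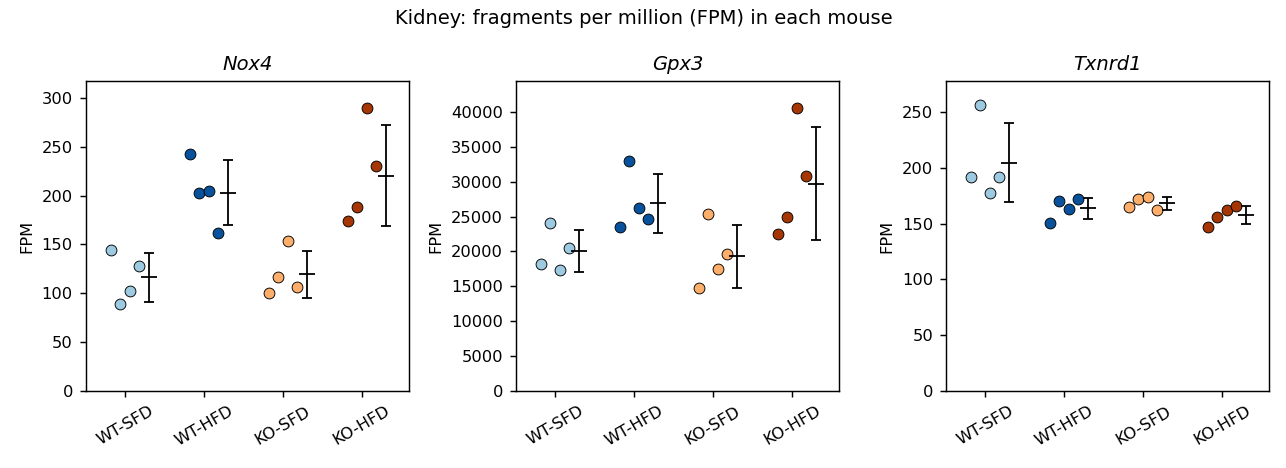
FPM of Nox4, Gpx3 and Txnrd1 in each kidney (points, linear axis from 0) by group, with the mean and SD of the 4 mice beside them. The Nox4 points of the HFD groups (162 to 289 FPM) all lie above those of the SFD groups (89.5 to 154 FPM), the Gpx3 groups overlap, and in Txnrd1 the WT-SFD group lies above the other 3 groups.

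Gpx3, which encodes the secreted glutathione peroxidase of plasma, was higher on HFD in most kidneys without passing the test. It was 18194, 24087, 17344 and 20455 FPM in WT-SFD and 23524, 33028, 26288 and 24697 FPM in WT-HFD. In KO it was 14732, 25392, 17553 and 19656 FPM on SFD and 22527, 25001, 40629 and 30800 FPM on HFD. The groups overlapped in both genotypes through the highest SFD mouse of each. The log2 fold change averaged over genotypes was 0.52 (SE 0.196, edgeR adjusted p = 0.151). It depended on the setting: the adjusted p was 0.0171 by edgeR with library totals in place of TMM, 0.0437 without a low-count filter and 0.00459 by DESeq2, which called 7.32% of all genes in this contrast, while the value was 0.10 (adjusted p = 0.905) with the proximal tubule covariate.

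Txnrd1, the cytosolic enzyme that keeps thioredoxin reduced, had its highest values in the kidneys of WT-SFD mice. It was 192, 257, 177 and 192 FPM in WT-SFD, 151, 170, 163 and 172 in WT-HFD, 165, 172, 174 and 162 in KO-SFD, and 147, 156, 162 and 165 in KO-HFD. Every WT-SFD kidney was above every kidney of the WT-HFD group (1.99% of genes were lower without overlap in that contrast) and of the KO-SFD group (2.09%). Neither contrast passed: the log2 fold change was -0.32 for diet in WT (SE 0.101, edgeR adjusted p = 0.244) and -0.28 for KO against WT on SFD (SE 0.101, adjusted p = 0.498). The WT-SFD mice enter both contrasts. Without the WT-SFD mouse at 257 FPM these values were -0.19 and -0.15. The diet contrast over both genotypes was -0.21 (SE 0.0714, edgeR adjusted p = 0.119), which DESeq2 called lower (adjusted p = 0.0497).

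The other 7 genes did not separate between the diets in kidney. Sod1 ranged from 278 to 665 FPM over the 16 kidneys (diet log2 fold change -0.25, SE 0.148), Sod3 from 437 to 838 FPM (-0.13, SE 0.110) and Gpx4, which reduces lipid peroxides in membranes, from 102 to 206 FPM (-0.11, SE 0.118). The 2 mitochondrial enzymes were the steadiest, with Sod2 at 298 to 403 FPM (-0.04, SE 0.0753, 95% interval -0.19 to 0.11) and Prdx3 at 155 to 203 FPM (0.01, SE 0.0724, interval -0.13 to 0.15). Cat was 664 to 1063 FPM (-0.002, SE 0.0922, interval -0.18 to 0.18). Hmox1, which breaks down haem and is known as an oxidative stress marker, was 18.7 to 45.7 FPM (0.08, SE 0.160), and its highest value belonged to the same WT-SFD mouse that had the highest Txnrd1. The median log2 fold change of the 10 genes was -0.02, beside -0.01 for all genes tested.

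In aorta the picture was of a different kind. Gpx3 and Cat fell and Sod3 rose with HFD averaged over genotypes, so 3 of the 10 genes were called (2 lower, 1 higher) where 3.95% of all genes were (3.58% lower, 0.365% higher). Gpx3 was 175, 110 and 19.2 FPM in WT-SFD and 32.7, 32.3, 30.4 and 34.8 FPM in WT-HFD. In KO it was 160, 94.6 and 28.0 FPM on SFD and 25.7, 35.6, 33.2 and 26.0 FPM on HFD. The HFD mice lay close together, and 1 SFD mouse of each genotype lay among or below them while the others were well above every HFD mouse. The log2 fold change was -1.64 (SE 0.381, edgeR adjusted p = 0.0272).

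Cat, the peroxisomal enzyme that splits hydrogen peroxide, was 192, 150 and 45.0 FPM in WT-SFD, 57.6, 46.4, 53.8 and 56.4 in WT-HFD, 145, 79.4 and 50.8 in KO-SFD, and 44.6, 55.6, 66.2 and 57.5 in KO-HFD (log2 fold change -0.99, SE 0.264, edgeR adjusted p = 0.0494). The same 4 SFD mice were high in Cat as in Gpx3. Sod2 showed them too: these 4 were at 160, 116, 122 and 83.6 FPM, and the other 10 aortae at 45.7 to 65.2 FPM (-0.76, SE 0.216, adjusted p = 0.0632 by edgeR). Gpx4 was 42.9 to 88.3 FPM in these 4 and 25.0 to 34.8 FPM in the other 10 (-0.84, adjusted p = 0.0618 by edgeR). Prdx3, the mitochondrial peroxiredoxin, was 16.6 to 38.8 FPM in these 4 and 8.86 to 14.8 FPM in the other 10 (-0.87, adjusted p = 0.0567 by edgeR). No HFD aorta reached the range of the 4 SFD aortae in any of these 5 genes. The 4 were singled out by their Gpx3 and Cat levels, so the separation in these genes follows from that choice. The share of all genes separated in this way was not counted, so the pattern is not shown to be particular to these enzymes.

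**Figure D3:**
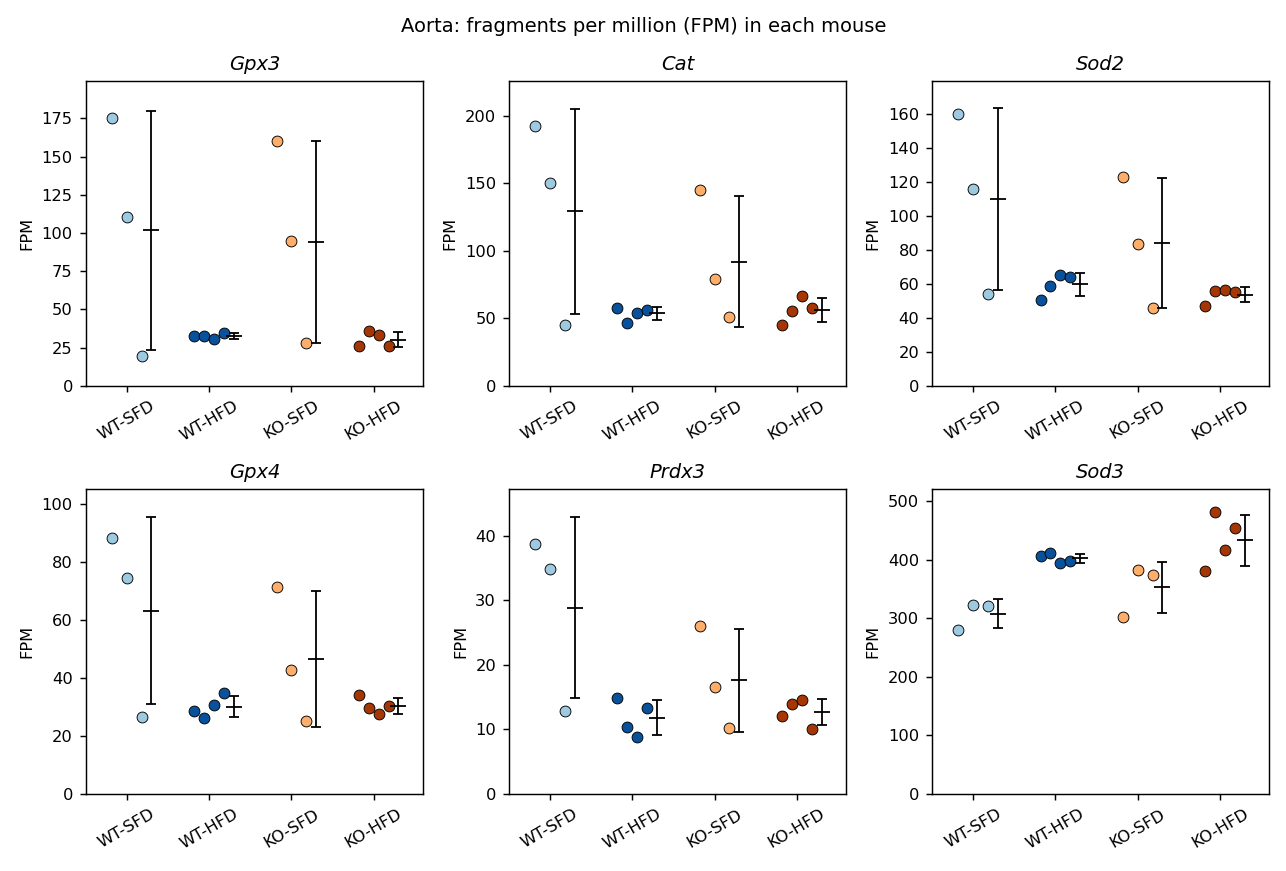
FPM of 6 genes in each aorta (points, linear axis from 0) by group, with the mean and SD of the 3 or 4 mice beside them. In Gpx3, Cat, Sod2, Gpx4 and Prdx3 the first 2 mice of each SFD group lie above all HFD mice and the third lies among or below them, while in Sod3 most SFD mice lie below the HFD mice.

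Sod3, the extracellular enzyme, ran the other way. It was 280, 323 and 321 FPM in WT-SFD and 406, 411, 395 and 398 FPM in WT-HFD, with all HFD mice above all SFD mice of this genotype (4.43% of genes were higher without overlap there). In KO it was 303, 382 and 374 FPM on SFD and 380, 481, 416 and 454 FPM on HFD, where the ranges met between 380 and 382 FPM. Averaged over genotypes Sod3 rose 1.27-fold (log2 fold change 0.34, SE 0.0782, edgeR adjusted p = 0.0263), and alone it was 0.39 in WT (adjusted p = 0.0833) and 0.29 in KO (adjusted p = 0.558, both by edgeR). Within WT 0 of the 10 genes were called by edgeR, against 0% of all genes, with 6 at an unadjusted p under 0.05 (17.0% of all genes) and 4 called by DESeq2 (4.50% of all genes). Within KO 0 were called by edgeR or DESeq2, against 0% and 0.0541% of all genes, with 2 at an unadjusted p under 0.05 (7.85%).

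Nox4 was 151, 224 and 312 FPM in WT-SFD, 291, 256, 268 and 279 in WT-HFD, 162, 192 and 290 in KO-SFD, and 290, 225, 235 and 252 in KO-HFD aortae. The groups overlapped, and the SFD mice reached both lower and higher than the HFD mice (log2 fold change 0.24, SE 0.150, edgeR adjusted p = 0.422). Thus the called Nox4 difference of the kidney had no called counterpart in aorta, and the difference between tissues was not tested. Sod1 was 32.2 to 78.1 FPM (-0.21, SE 0.146), Txnrd1 22.4 to 30.8 FPM (0.07, SE 0.0745) and Hmox1 3.32 to 6.01 FPM (0.12, SE 0.183), and none of them passed. Txnrd1 varied least, with 1.38-fold between its highest and lowest aorta. Its KO-SFD mice (22.4 to 25.8 FPM) all lay below the WT-SFD mice (26.5 to 30.8 FPM), as was so for 4.37% of genes. The KO-HFD mice (26.9 to 29.1 FPM) all lay above the KO-SFD mice, as was so for 3.45% of genes. Neither contrast passed (edgeR adjusted p = 0.783 and 0.692).

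Markers of fat cells moved with the aortic differences. By the labels the aortae had been freed of adjacent fat when they were taken. The sum of 15 white and general adipocyte markers was 7685, 5672 and 618 FPM in WT-SFD, 577, 555, 793 and 760 in WT-HFD, 5374, 1951 and 602 in KO-SFD, and 617, 700, 617 and 503 in KO-HFD. The 4 SFD aortae high in Gpx3, Cat, Sod2, Gpx4 and Prdx3 were the 4 with sums of 1951 FPM or more. With HFD 13 of the 15 markers fell (median log2 fold change -3.55) and 7 of 9 brown adipocyte markers fell (median -3.01). No marker of either list was without counts. Plin4, the most abundant of the 15, was at 318 to 645 FPM in every aorta and was not among those called, and Ucp1 was the most abundant of the 9. Smooth muscle markers were lowest in 3 of the same SFD aortae, at 10732, 13340 and 11609 FPM, and 16001 to 19236 FPM in the other 11, and 0 of the 7 tested were called by edgeR or DESeq2 (3 at an unadjusted p under 0.05, as were 18.8% of all genes). Of 8 endothelial markers tested 1 fell by edgeR, the growth factor receptor Kdr (-2.75, adjusted p = 0.0168), and DESeq2, which called 6.81% of all genes, called 3 lower, while Pecam1, the most abundant, was at 0.06 and Cdh5 held no count. Fibroblast marker sums, with Col1a2 the most abundant, were 1974 to 3580 FPM in WT-SFD and 1861 to 3842 in KO-SFD. On HFD they were 3147 to 3323 FPM in WT and 2667 to 3359 in KO. Cardiac muscle markers, with Ryr2 the most abundant, reached 537 FPM in WT-SFD, where the median was 139. DESeq2 called 0 of 6 fibroblast and 0 of 3 cardiac muscle markers. The part of the endothelial, fibroblast and cardiac muscle markers in the result was not tested.

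The part of the adipocyte markers in these differences was not tested. With the mean log2 level of the 15 markers, 13 of which themselves fell, as a covariate 0 of the 10 genes were called by edgeR, and the diet values were 0.24 for Gpx3, 0.12 for Cat and 0.26 for Sod3 (adjusted p = 0.828). Without the 4 SFD aortae highest in these markers, which left 1 SFD mouse of each genotype and the spread to the HFD groups alone, 0 were called and the values were 0.44 for Gpx3, 0.20 for Cat and 0.27 for Sod3 (adjusted p = 0.783 by edgeR), with no gene called in the whole table. Since the 4 aortae left out were also those highest in Gpx3 and Cat, the loss of their fall follows from that choice, and the values are given as a description. Leaving out single mice ended calls: Sod3 was called in 4 of 14 such fits (edgeR adjusted p 0.0112 to 0.0984), Gpx3 in 3 (2.99e-04 to 0.118) and Cat in 2 (4.87e-04 to 0.190). Sod3 passed without WT-SFD mouse 3, KO-SFD mouse 2 or 3 or KO-HFD mouse 1, Gpx3 without WT-SFD mouse 3 or KO-SFD mouse 2 or 3, and Cat without WT-SFD mouse 3 or KO-SFD mouse 3. Cat also missed the limit with DESeq2's size factors in edgeR (adjusted p = 0.0508), and Sod3 with library totals in place of TMM (0.33, adjusted p = 0.187 by edgeR). In the fits that left out 1 mouse, 6 of the 10 genes were called without the WT-SFD mouse or without the KO-SFD mouse that was low in adipocyte markers. The share of all genes called in those fits is not given here, so this count is not shown to be particular to the 10 genes.

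**Figure D4:**
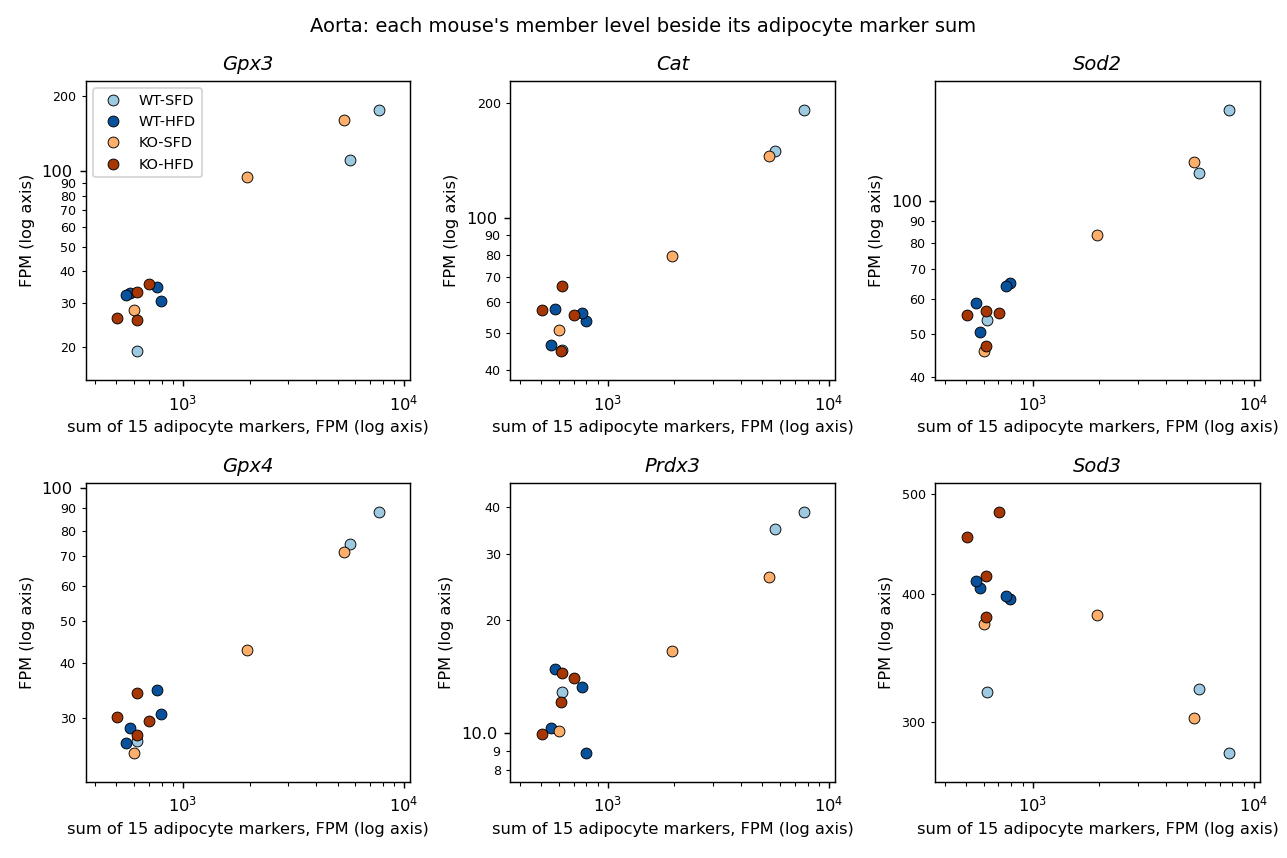
FPM of 6 genes (vertical, log axis) beside the summed FPM of 15 white and general adipocyte markers (horizontal, log axis) in each of the 14 aortae, coloured by group. The 10 aortae with sums of 503 to 793 FPM, of both diets, form a cluster in each panel, and the 4 SFD aortae with 1951 to 7685 FPM lie apart, higher in every gene but Sod3.

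KO and WT mice did not differ in any of the 10 genes by the test, in either tissue. In aorta 0 of 10 were called by edgeR or DESeq2 on SFD (0.0811% of all genes by edgeR and 0.182% by DESeq2), on HFD (0.0811% and 0.270%), averaged over diets (0.196% and 0.372%) or in the difference of the diet effect (0% and 0.0135%). At an unadjusted p under 0.05 they were 1 on SFD (6.54% of all genes), 0 on HFD (5.35%), 1 averaged over diets (7.17%) and 0 for the difference of the diet effect (4.37%). In kidney 0 of 10 were called by either tool on SFD (0.0133% by edgeR and 0.173% by DESeq2), on HFD (0% and 0.00665%), averaged over diets (0.0133% and 0.113%) or in the difference of the diet effect (0% and 0.00665%). The unadjusted counts there were 1 on SFD (8.69%), 0 on HFD (1.75%), 1 averaged over diets (5.93%) and 0 for the difference of the diet effect (3.35%). The lowest unadjusted p in aorta belonged to Sod1, the cytosolic dismutase, with a mean of 60.6 ± 16.8 FPM in WT-SFD (SD, n = 3), 47.1 ± 11.1 in WT-HFD (n = 4), 41.0 ± 7.68 in KO-SFD (n = 3) and 39.2 ± 5.55 in KO-HFD (n = 4). The groups overlapped on each diet, and averaged over diets the log2 fold change was -0.41 (SE 0.146, 95% interval -0.70 to -0.13, edgeR adjusted p = 0.588). Prdx3 had the largest difference of the diet effect in aorta, 0.83 on the log2 scale, with an interval of -0.12 to 1.78 (edgeR adjusted p = 0.998). For Sod3 the KO to WT difference in aorta was 0.15 averaged over diets (SE 0.0777, interval -0.00 to 0.30). The intervals for Gpx3 in aorta, from -0.86 to 0.64, were wide, so a sizeable genotype difference was not detectable there. In kidney the largest genotype values averaged over diets were 0.18 for Gpx4 (SE 0.118) and -0.17 for Txnrd1 (SE 0.0714, edgeR adjusted p = 0.834).

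**Figure D5:**
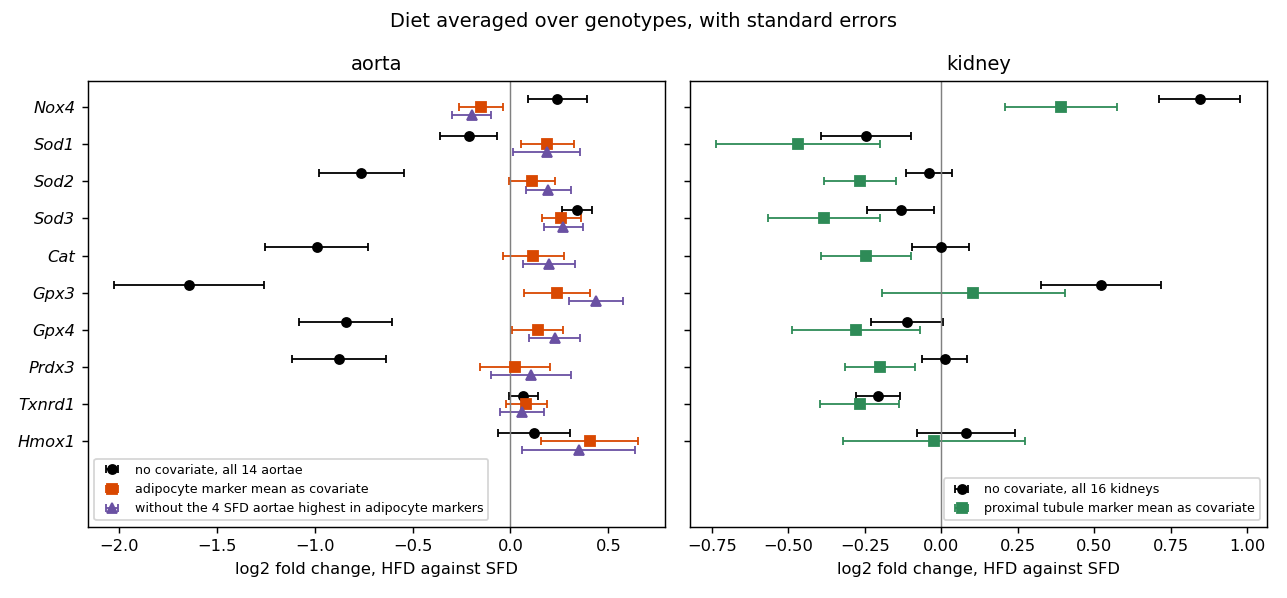
Log2 fold change of HFD against SFD averaged over genotypes, with its SE, for the 10 genes in aorta (left) and kidney (right), in the fit of all libraries and with marker covariates or without the 4 SFD aortae highest in adipocyte markers. In aorta Gpx3 lies at -1.64 without a covariate and at 0.24 with it, and in kidney Nox4 lies at 0.85 and 0.39.

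The rest of the redox pathway was followed through lists of related genes, for diet averaged over genotypes, where 18.8% of all genes in aorta and 18.2% in kidney were at an unadjusted p under 0.05. At an adjusted p under 0.05 edgeR called 3.95% in aorta (3.58% lower) and 4.62% in kidney, and DESeq2 6.81% and 7.32%. Among 9 tested oxidant sources (NADPH oxidase subunits and other oxidases) 1 was lower in aorta, the purine-degrading oxidase Xdh (-0.79, edgeR adjusted p = 0.0434), and 0 of 9 were called in kidney by edgeR or DESeq2 (4 at an unadjusted p under 0.05), where the cytosolic oxidase subunit Ncf1 stood at 0.60 (adjusted p = 0.199) and Xdh at 0.30 (adjusted p = 0.164). Of 6 other glutathione peroxidases and peroxiredoxins 0 were called in either tissue by edgeR or DESeq2 (2 in aorta and 1 in kidney at an unadjusted p under 0.05), with Prdx6 at -0.30 and Prdx5 at -0.40 in aorta and Gpx7 at 0.52 (adjusted p = 0.0800) and Prdx5 at -0.23 in kidney.

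In the thioredoxin list, 8 genes tested, kidney Sesn2, a stress-induced sestrin, rose (0.73, SE 0.159, edgeR adjusted p = 0.0104) and Txnrd2, the mitochondrial counterpart of the cytosolic Txnrd1, fell (-0.32, adjusted p = 0.0352). Sesn2 also passed within KO alone (0.93, adjusted p = 0.0337 by edgeR). In aorta 0 of 8 were called by edgeR (2 at an unadjusted p under 0.05, and 1 called by DESeq2), with Txn2 at -0.51 (adjusted p = 0.0885) and Txnrd2 at -0.43. In glutathione synthesis and recycling 0 of 6 were called in either tissue by edgeR (1 in aorta and 2 in kidney at an unadjusted p under 0.05), and DESeq2 called 1 in aorta and 0 in kidney, with the synthetase Gss at -0.75 (adjusted p = 0.0673) and the reductase Gsr at 0.15 in aorta, and Glrx2 at -0.19 and Gclm at -0.18 in kidney. Of 9 regulators and targets of NRF2, the factor that binds the antioxidant response element, 0 were called in either tissue by edgeR or DESeq2, nor did any reach an unadjusted p under 0.05, with Mafg at 0.15 in both tissues, Blvra at -0.20 in aorta and Ftl1 at 0.32 in kidney.

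Among 6 genes of NADPH supply, the reducing power on which glutathione and thioredoxin reductases draw, 4 fell in aorta: the pentose phosphate genes Tkt (-2.25), Pgd (-1.59) and Taldo1 (-1.22) and the isocitrate dehydrogenase Idh1 (-0.93). DESeq2 called the same 4 lower and the transhydrogenase Nnt higher (0.27 by edgeR, adjusted p = 0.0988). In kidney Pgd fell (-0.43, edgeR adjusted p = 0.0415). Of 13 mitochondrial enzymes 12 fell in aorta (median of the 13 -1.15), all but Vdac1, and the peroxisomal genes Pex11a (-2.25), Ehhadh (-1.62) and Scp2 (-0.93) fell, where DESeq2 called 8 of 9 listed lower, while in kidney edgeR called 1 gene of both lists, Acadm, of fatty acid oxidation (-0.46, edgeR adjusted p = 0.00464), and DESeq2 also called Sdha of the respiratory chain higher (0.17 by edgeR, adjusted p = 0.177), with the peroxisomal Ehhadh at -0.31 and Pex14 at -0.25. The part of the adipocyte markers in the aortic values of these lists was not tested. Of 8 genes for selenoprotein synthesis and copper supply, on which the glutathione peroxidases, thioredoxin reductases and SOD1 depend, Sepp1, the plasma selenium carrier, rose in kidney (0.47, edgeR adjusted p = 0.0198), also within KO (0.64, adjusted p = 0.0403), and 0 were called in aorta by edgeR or DESeq2 (2 at an unadjusted p under 0.05), with Sepsecs at -0.29 and Sephs2 at -0.92. No gene of these lists was called between KO and WT in either tissue by edgeR, and DESeq2 called 1, in aortae on SFD. This was Txnip, the thioredoxin inhibitor, named after its values were seen, at 405 ± 71.6 FPM in WT-SFD and 237 ± 15.4 FPM in KO-SFD (SD, n = 3 each, log2 fold change -0.77, SE 0.176, edgeR adjusted p = 0.362). DESeq2 called Txnip lower on HFD in WT aortae too (271 ± 70.2 FPM in WT-HFD, n = 4, log2 fold change -0.58, edgeR adjusted p = 0.0794), and the WT-SFD mice enter both contrasts.

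The genes whose pattern over mice was nearest to that of the most variable members, by the root mean square difference of centred log2 levels, were found in each tissue. Over the 14 aortae Gpx3 was nearest to Uqcrq (0.25), Etfb and Acadm, Cat to Aldoa (0.10), Cs and Atp5b, and Prdx3 to Bcl2l13 (0.20), Mfng and Ghitm. Over the 16 kidneys Nox4 was nearest to Prnp (0.15), Bcl11b and Enpp2, Gpx3 to Lgmn (0.10), Ctsl and Habp2, and Hmox1 to Elovl2 (0.19), Sema4a and Arvcf. Genes chosen for a like pattern over mice share its diet direction by that choice.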

How the data were processed

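Aorta RNA was sequenced at a university core and kidney RNA by a company. According to the study's methods the authors trimmed the aorta reads with cutadapt, while the company trimmed the kidney reads. Reads of both tissues were then aligned to GRCm38/mm10 (Bowtie2, TopHat2) and assigned to genes by featureCounts. The deposited tables hold raw counts for each library without pooling. The strand setting is not given in the sources used here. All sample columns were used, so 0 were left out. Counts were fitted in each tissue separately with edgeR 4.0.16 in R 4.3.3 (TMM, filterByExpr by group, quasi-likelihood F test, 1 coefficient for each of 4 groups). P-values were adjusted by Benjamini-Hochberg over all genes tested and called under 0.05, which is wider than the study's limit of 0.001. The SE is the log2 fold change divided by the root of F. FPM is edgeR's CPM after TMM. Gene lengths came from GENCODE vM21, which matched 40254 genes of the tables. The fit was tested on simulated data, for diet averaged over genotypes. In aorta 35.8% of genes changed 1.5-fold and 71.6% of those changed 2-fold were called, and in kidney 56.7% and 82.1%. Of unchanged genes 0.0343% were called in aorta and 0.0539% in kidney. Changes of such sizes can therefore be missed. Within a tissue each library is a separate mouse, and every pair of libraries differed beyond sampling noise (smallest chi-square per gene 8.65 in aorta and 9.55 in kidney).

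The 10 genes, the related gene lists and the markers were chosen with earlier results of these data known. Named beside the 10 genes were Egfr, Nnt, every list gene called in a tissue (1 is not reported here) and otherwise up to 2 per list with the smallest p for diet averaged over genotypes, the most abundant marker and those without counts on the lists described, and the 3 genes nearest in pattern to the 3 most variable members. Sdha, Aqp1 and Txnip were named after their values were seen. Alternatives were other scaling, DESeq2 1.42.0, no filter, protein-coding genes alone, only the groups compared, marker covariates, and leaving out libraries.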

Additional observations from a re-analysis of the deposited data

Results flagged for a closer look

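In 4 of 72 groups of 4 mice, over 12 genes (the 10 enzymes, Egfr and Nnt), 1 mouse lay far from the other 3 by Dixon's ratio at the 95% level, and chance flags about 1 in 20 groups. Sod2 was 47.0 FPM in a KO-HFD aorta whose group otherwise lay at 55.3 to 56.4 FPM, and Txnrd1 was 30.4 FPM in a WT-HFD aorta beside 25.7 to 26.4 FPM in the others. In kidneys of KO-SFD mice Hmox1 was 26.5 FPM in 1 mouse beside 21.5 to 22.2 FPM, and Sod3 was 535 FPM in another beside 672 to 692 FPM. The WT-HFD aorta high in Txnrd1 also had the highest share of small and structural RNA among its counts, 43.1% against 18.4% at the lowest.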

How the results depend on the processing

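The number of the 10 genes called in aorta for diet averaged over genotypes, 3 as reported, was 5 with library totals (4.28% of all genes), 5 without a low-count filter (2.35%), 6 by DESeq2 (6.81%), and 0 at an adjusted p under 0.001, with the adipocyte covariate and without the 4 SFD aortae highest in adipocyte markers (0%, 0.00676% and 0%), and leaving out single libraries gave 0 to 6. For diet in WT aortae, 0 as reported, DESeq2 gave 4 (4.50%) and leaving out single libraries 0 to 6. For kidney diet averaged over genotypes, 1 as reported, library totals and no filter gave 2 each (4.94% and 2.74%), DESeq2 3 (7.32%) and the proximal tubule covariate 0 (1.14%). For WT kidneys, 0 as reported, library totals, no filter, protein-coding genes alone and DESeq2 gave 1 each (0.613% of all genes without a filter to 1.75% by DESeq2), and single libraries left out 0 to 1. For KO kidneys, 1 as reported, the limit of 0.001 and the proximal tubule covariate gave 0 (0.333% and 0.466%), DESeq2 2 (4.62%), and single libraries left out 0 to 1. Shares of all genes in the fits without single libraries are not given here. Single values that turned sign in aorta with the adipocyte covariate and, second, without the 4 aortae were Nox4 (-0.15, -0.20), Sod1 (0.19, 0.19), Sod2 (0.11, 0.19), Cat (0.12, 0.20), Gpx3 (0.24, 0.44), Gpx4 (0.14, 0.22) and Prdx3 (0.0251, 0.10). In kidney the proximal tubule covariate gave -0.20 for Prdx3 and -0.0232 for Hmox1, and leaving out single kidneys gave -0.0250 to 0.0397 for Prdx3 and -0.0439 to 0.0479 for Cat. Causes were not tested beyond what each setting's construction shows. The genotype counts stayed at 0 under all settings run. Library totals in place of TMM put the median log2 value of all aortic genes at -0.11 for diet in KO, 0.27 for KO against WT on SFD, 0.17 averaged over diets and -0.20 for the difference of the diet effect. The lowest counts, 26 for Hmox1 and 73 for Prdx3 in aorta, set the weakest precision by depth. No paired analysis was possible because mouse numbers differ between groups.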

Other observations

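Nnt, the mitochondrial NADPH-producing transhydrogenase in which C57BL/6J and C57BL/6N sublines are known to differ, was 139 and 134 FPM in 2 of the 4 WT-HFD kidneys and 213 to 326 FPM in the other 14 kidneys. In aorta it was 49.4 to 63.4 FPM in WT-SFD and 65.4 to 70.5 FPM in WT-HFD, without overlap, and 46.1 to 63.9 FPM in KO-SFD and 63.1 to 69.1 FPM in KO-HFD, which met (diet averaged over genotypes 0.27 on the log2 scale, edgeR adjusted p = 0.0988, called higher by DESeq2). Its KO to WT difference on HFD in kidney was 0.60 on the log2 scale (SE 0.199, edgeR adjusted p = 1.00). Without these 2 kidneys the Nox4 diet value averaged over genotypes was 0.91 (edgeR adjusted p = 0.00217).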
